A study of Mus musculus with 30 samples.

Results

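The collagen genes of the mouse were followed through every bulk and single-cell library of a study of cardiac fibroblasts and their conversion towards muscle. They were chosen by name alone, as all genes whose symbol is Col, a number, the letter a and a further number (a rule that uses no measured value). The rule found 44 genes among the 59108 distinct symbols of the count tables. By the architecture of their chains, 11 were fibrillar, 9 network-forming, 6 beaded (type VI), 9 FACIT, 4 transmembrane, 2 multiplexin and 1 anchoring (Col7a1), and 2 were left unclassed (Col26a1 and Col28a1).

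Collagens are extracellular matrix proteins in which chains wind around one another into a helix. Fibrillar collagens (types I, II, III, V, XI, XXIV and XXVII) form the tension-bearing fibres of the tissue, network collagens such as type IV form the sheets of basement membranes, and beaded type VI collagen forms microfibrils near cells. FACITs are fibril-associated collagens with interrupted helices that sit on fibre surfaces, and the multiplexins types XV and XVIII are bound to basement membranes. In the heart, fibroblasts are the main source of the type I and type III fibres between muscle cells, and fibrosis is an excess of them.

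All libraries came from wild-type (WT) mouse hearts and from primary cells labelled as cardiac fibroblasts (CFs). One set held untreated CFs cultured for 3 days from neonatal mice (postnatal days 1 to 3) and from mice of 3, 12 and 24 months. A further set held neonatal, 3-month and 18-month CFs that received either LacZ, a control gene, or MGT, the cardiac transcription factors Mef2c, Gata4 and Tbx5, which convert fibroblasts into induced cardiomyocyte-like cells, and were collected on day 3. The nuclear receptor gene Nr4a3 was overexpressed in neonatal CFs (OENr4a3, with OECtrl as control), and it was knocked down by a short hairpin in 3-month MGT cells on day 7 (shNr4a3, with the non-targeting shNT as control). The sample titles give day 10 for the overexpression libraries and the series text gives day 7, so that their time is uncertain. The labels are followed where columns read 13 months (12-month CFs) and 15 months (18-month cells). Each of these 14 groups had 2 bulk libraries, 28 in all. A single-cell library of MGT cells was made from neonatal mice and another from mice of 24 months.

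Bulk libraries held 17283764 to 22311330 gene counts in the CF set, 14489836 to 18796708 in the LacZ and MGT set, 14275501 to 18441428 in the overexpression set and 39746879 to 43448379 in the knockdown set. Levels are given as CPM, counts scaled to library totals after TMM normalization, and genes are ranked against each other only after division by gene length (CPM per kb). Nr4a3 was at 2.49 and 1.85 CPM in OECtrl and 175 and 178 CPM in OENr4a3, and at 8.84 and 8.18 CPM in shNT and 0.431 and 0.744 CPM in shNr4a3. The labels do not say whether the libraries of a group came from separate animals or cultures, so p-values measure the spread between libraries, which may be technical. Xist, which is transcribed in female cells, was at 775 CPM or more in neonatal and 24-month CFs and at 0.479 CPM or less in 3-month and 12-month CFs. In the LacZ and MGT set it was at 440 to 548 CPM in neonatal cells and at 0.568 CPM or less at 3 and 18 months. Where ages differ in Xist, age and the sex makeup of the cells cannot be told apart. Differences are log2 fold changes ± SE from edgeR's quasi-likelihood test, with Benjamini-Hochberg adjusted p over all genes tested and a threshold of 0.05. In bulk RNA, fewer cells of a type and less RNA per cell cannot be told apart.

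Collagen messages were a large part of the fibroblast RNA. The 44 genes held 5.19% and 5.13% of all gene counts in the neonatal CF libraries, 4.18% and 4.30% at 3 months, 2.98% and 2.88% at 12 months and 3.55% and 3.65% at 24 months. Neonatal cells had the largest share and 12-month cells the smallest, and the libraries of no 2 ages overlapped. Fibrillar collagens alone held 2.89% and 2.86% in neonatal CFs and 2.88% and 2.95% at 3 months, so the drop between those ages was not in the fibrillar share. Network collagens held 1.89% and 1.86% in neonatal CFs and 0.927% and 0.950% at 3 months.

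**Figure D1:**
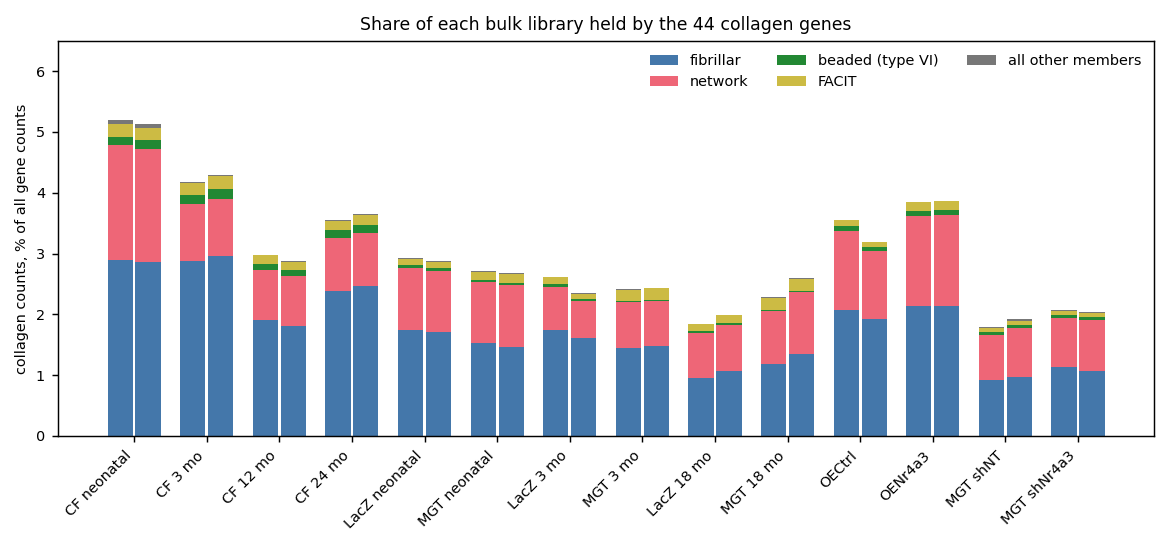
Share of all gene counts (y axis, percent) held by the 44 collagen genes in each of the 28 bulk libraries, 1 bar per library, stacked by class. Neonatal CF libraries reach 5.19% and 5.13%, and the shNT libraries, at 1.79% and 1.92%, and LacZ libraries of 18 months, at 1.84% and 1.99%, are the lowest.

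Among neonatal CFs the highest levels per length were Col1a1, the α1 chain of type I collagen, at 1460 ± 24.8 CPM per kb (SD, n = 2), and Col4a1, a chain of the basement membrane network, at 1424 ± 25.7. The difference between those 2 genes was within the sum of their SDs. Col4a2 at 905 CPM per kb, Col1a2 at 508, Col3a1 at 469 and Col5a2 at 466 followed, and the last 2 also did not differ beyond their spread. In 3-month CFs the order had changed, with Col3a1, the single chain of type III collagen, first at 1372 ± 16.0 CPM per kb and Col1a1 second at 806 ± 37.1. Col3a1 also led at 12 months, at 708 ± 43.3 CPM per kb, and at 24 months, at 1142 ± 30.1. At the other end, Col6a4, Col6a5, Col10a1, Col17a1 and Col25a1 had too few counts to test in CFs, so that 39 of the 44 genes were tested.

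Between neonatal and 3-month CFs, 13 collagen genes rose and 20 fell. Among all 16466 genes tested 52.5% changed, 28.0% rising and 24.4% falling. The median collagen difference was -0.38 on the log2 scale, against 0.01 over all genes. Highly counted genes are called more easily, so the members of average log2 CPM of at least 5 were set beside all genes above that level: 19 of 20 such collagen genes changed, against 67.8%. At 12 months against neonatal CFs 8 rose and 22 fell, with 55.2% of all genes called (29.7% higher, 25.5% lower) and a collagen median of -0.72. At 24 months 10 rose and 23 fell, with 54.5% of all genes called (27.9% higher, 26.6% lower) and a collagen median of -0.58. These 3 comparisons share the neonatal libraries.

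The neonatal CF libraries also carried more RNA of other cell types. The 8 cardiomyocyte markers summed to 1050 to 1134 CPM there and to 10.2 to 33.6 CPM at the later ages, where Myl7 was at 0. Endothelial markers summed to 953 to 964 CPM in neonatal CFs and 74.9 to 178 CPM later, and epicardial markers to 238 to 246 CPM and 54.4 to 71.4 CPM. Pericyte and smooth muscle markers summed to 1065 to 1117 CPM in neonatal CFs and 241 to 331 CPM later. The myofibroblast list marks a state of fibroblasts and not another cell type, and shares Tagln with the pericyte and smooth muscle list. It summed to 9017 to 9396 CPM in neonatal CFs and 3392 to 4204 CPM later. The 10 fibroblast markers went the other way, from 3591 to 3686 CPM in neonatal CFs to 6920 to 7848 CPM at later ages, with 9 of 10 higher and 1 lower at 3 months. The part of these cells in the collagen differences was not tested.

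Of the 11 fibrillar genes, 3 rose and 7 fell from neonatal to 3-month CFs. Col1a1 was at 9699 and 9469 CPM in neonatal CFs, 5119 and 5463 at 3 months, 3727 and 3458 at 12 months and 4285 and 4503 at 24 months. Its neonatal libraries stood above all others, and the differences from neonatal were -0.86 ± 0.04 at 3 months (adjusted p = 2.3e-18), -1.42 ± 0.04 at 12 months and -1.13 ± 0.04 at 24 months. Col3a1 did the reverse. Its libraries held 4571 and 4636 CPM in neonatal CFs, 13354 and 13575 at 3 months, 7251 and 6649 at 12 months and 10998 and 11416 at 24 months, and it was higher than in neonatal cells by 1.55 ± 0.04 (adjusted p = 3.8e-26), 0.59 ± 0.04 and 1.28 ± 0.04. The counts of Col3a1 per count of Col1a1 went from 0.471 and 0.490 in neonatal CFs to 2.61 and 2.49 at 3 months.

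Col1a2, whose product joins that of Col1a1 in type I collagen, moved less than its partner. Its libraries held 6289 and 6340 CPM in neonatal CFs and 5780 and 5838 at 3 months, a fall of 0.12 on the log2 scale with an SE of 0.03 (adjusted p = 0.0034). Counts of Col1a1 per count of Col1a2 were 1.54 and 1.49 in neonatal CFs and between 0.886 and 0.968 in the 6 libraries of later ages.

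The minor fibrillar chains, which are built into type I fibres and set their diameter, split further. Col11a1 changed most: it was at 493 and 522 CPM in neonatal CFs, 49.6 and 48.4 at 3 months, 5.50 and 8.06 at 12 months and 4.50 and 4.56 at 24 months. No libraries of 2 ages overlapped, and the differences from neonatal were -3.37 ± 0.06 (adjusted p = 2.3e-29), -6.21 ± 0.08 and -6.81 ± 0.08. Col5a1 was at 2890 and 2822 CPM in neonatal CFs and 1169 and 1247 at 3 months (-1.24 ± 0.04). Col5a3, a chain of the same type, was at 13.6 and 14.6 CPM in neonatal CFs, 50.8 and 56.6 at 3 months, 33.5 and 29.0 at 12 months and 36.3 and 41.1 at 24 months, and rose by 1.93 ± 0.09, 1.15 ± 0.10 and 1.46 ± 0.09. Chains of type V collagen thus moved in opposite directions, with Col5a2 lower at 3 months (-0.38). Col27a1, a fibrillar collagen of cartilage, fell from 31.7 and 34.0 CPM to 8.54 and 8.67 at 3 months (-1.93 ± 0.12).

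**Figure D2:**
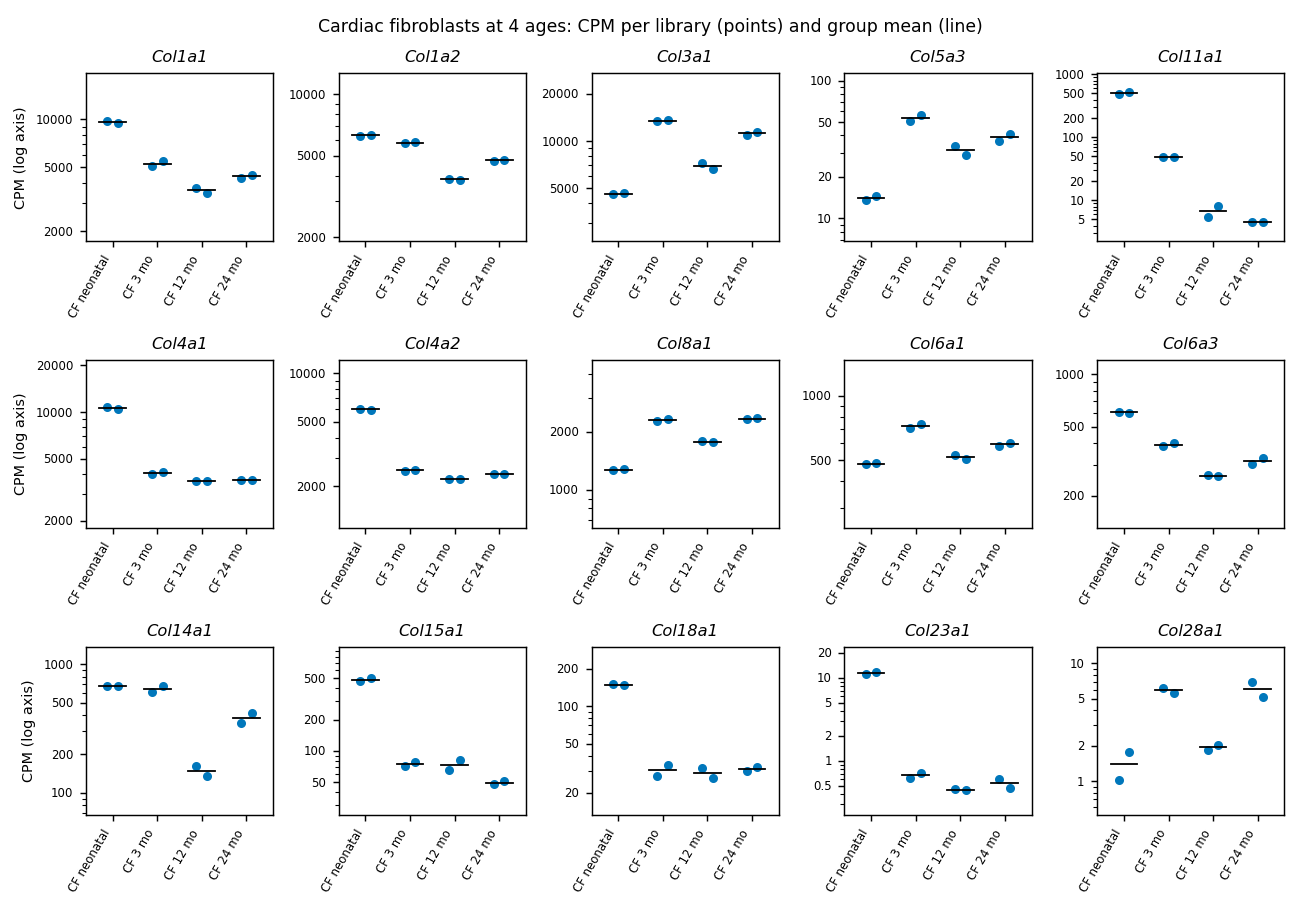
Levels (CPM, log axis) of 15 collagen genes in the 2 CF libraries of each age (points) with the group mean (line), 1 panel per gene. Col11a1 and Col23a1 are lowest in the later ages, Col3a1 and Col28a1 are lowest in neonatal cells, and Col14a1 has its lowest point at 12 months.

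Of the network collagens, 4 rose and 3 fell at 3 months among the 8 tested. The main chains of basement membrane type IV collagen fell together. Col4a1 was at 10767 and 10495 CPM in neonatal CFs, 4019 and 4147 at 3 months, 3601 and 3623 at 12 months and 3660 and 3684 at 24 months, with differences of -1.38, -1.56 and -1.53. Col4a2 was at 6034 and 5945 CPM in neonatal CFs and 2473 and 2540 at 3 months, a difference of -1.26. In both genes the neonatal libraries stood apart while the 3 later ages lay close to each other.

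Type IV genes lie in head-to-head pairs, and the tables' coordinates place Col4a1 at chr8:11198423-11312826 on the minus strand and Col4a2 at chr8:11312805-11449287 on the plus strand. The genes overlap by 22 bases. The stretch that holds the overlap is shown because the 2 genes moved together with age and apart after Nr4a3 knockdown. It is RefSeq sequence of GRCm38.p6, chr8:11312801-11312830 on the plus strand, with the shared bases in capitals.
Col4a2: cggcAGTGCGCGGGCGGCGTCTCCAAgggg

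Col4a3 and Col4a4, which with Col4a5 form the type IV network of kidney and lung basement membranes, start 72 bases apart on chromosome 1. Col4a4 spans chr1:82448423-82586849 on the minus strand and Col4a3 chr1:82586921-82722059 on the plus strand. The stretch chr1:82586850-82586975 is shown because the 2 genes moved together after both changes of Nr4a3. It is RefSeq sequence of GRCm38.p6 read on the minus strand, with the 71 bases between the 2 starts in capitals.
Col4a4: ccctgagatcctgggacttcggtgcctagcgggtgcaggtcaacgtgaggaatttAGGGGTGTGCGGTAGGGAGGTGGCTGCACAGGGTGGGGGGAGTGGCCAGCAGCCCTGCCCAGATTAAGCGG
In CFs Col4a3 stood at 17.9 and 13.2 CPM in neonatal cells and 14.1 and 9.06 at 12 months, with overlapping libraries. Col4a4 was at 20.1 and 17.1 CPM in neonatal CFs and 34.3 and 33.4 at 3 months and rose by 0.86 ± 0.10.

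Col8a1, a short-chain network collagen of vessel walls, rose at each later age. It was at 1265 and 1284 CPM in neonatal CFs, 2271 and 2340 at 3 months, 1787 and 1763 at 12 months and 2330 and 2360 at 24 months, with differences of 0.85 ± 0.04, 0.48 and 0.88. The X-linked Col4a5 differed from neonatal cells by -0.16 at 3 months, and its neighbour Col4a6 by 0.54 ± 0.07.

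Chains of beaded type VI collagen did not move together. Col6a1 was at 481 and 484 CPM in neonatal CFs and 709 and 735 at 3 months (0.58 ± 0.04), and Col6a2 was at 306 and 318 CPM and then 429 and 448 (0.49). Col6a3, whose chain joins those 2 in the type VI trimer, was at 604 and 603 CPM in neonatal CFs, 385 and 402 at 3 months and 262 and 260 at 12 months, falling by 0.62 and 1.21. Counts of Col6a3 per count of Col6a1 went from 1.26 and 1.25 in neonatal cells to between 0.495 and 0.550 in the 6 later libraries. The 12-month difference of Col6a1, 0.10 (adjusted p = 0.035), lost its call under several alternatives. It was 0.08 under DESeq2 (adjusted p = 0.12), with RLE scaling (adjusted p = 0.10) and with no filter on low counts (adjusted p = 0.14). With a replicate block it was 0.10 (adjusted p = 0.054). The call was also lost without CF 12-month replicate 1, where the difference was 0.07, and without either neonatal library, where it was 0.08.

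Among the 9 FACIT genes 3 rose and 3 fell at 3 months, and 1 rose and 5 fell at 12 months. Col14a1, which binds fibril surfaces and limits their lateral growth, had an uneven course. Neonatal CFs held it at 683 and 679 CPM, followed by 610 and 680 CPM at 3 months, 160 and 134 at 12 months and 347 and 421 at 24 months. The 12-month libraries lay far below the rest, with a difference from neonatal of -2.21 ± 0.14 (adjusted p = 0.00011), while the 3-month difference of -0.08 ± 0.13 missed the threshold (adjusted p = 0.66). Col16a1 fell at each age, by 0.57 at 3 months from 279 and 271 CPM to 183 and 187. Col12a1, a FACIT of dense connective tissue, was at 1060 and 1013 CPM in neonatal CFs and 1267 and 1375 at 3 months (0.35). Col9a1 had 7 and 10 counts in the neonatal libraries and 0 counts in the 12-month and the 24-month libraries, at least 5.50-fold and at least 6.39-fold lower with a floor of 3 counts over the group. Col19a1 went from 3.89 and 2.84 CPM to 0.315 and 0.192 at 3 months (-3.70 ± 0.41).

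Both multiplexins fell at every later age. Col15a1 was at 471 and 497 CPM in neonatal CFs, 72.0 and 78.8 at 3 months, 66.4 and 81.3 at 12 months and 48.6 and 51.0 at 24 months, with differences of -2.68 ± 0.07 (adjusted p = 3.9e-14), -2.71 and -3.28 ± 0.07. Col18a1, whose carboxyl end is cleaved to endostatin, was at 150 and 147 CPM in neonatal CFs and 27.6 and 33.5 at 3 months (-2.28 ± 0.07). In the single-cell library of 24-month MGT cells, the highest Col18a1 level among the clusters was in the 64 endothelial-like cells, at 222 CPM. Endothelial markers were higher in neonatal CFs, as given above, and their part in the fall of Col18a1 was not tested.

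Col7a1, the anchoring fibril collagen beneath epithelia, fell from 35.1 and 37.7 CPM in neonatal CFs to 4.95 and 5.56 at 3 months (-2.79 ± 0.14). The transmembrane collagen Col23a1 was at 11.0 and 11.8 CPM in neonatal CFs, 0.630 and 0.719 at 3 months, 0.458 and 0.448 at 12 months and 0.610 and 0.475 at 24 months. Its neonatal libraries stood apart from all later ones, with a difference of -4.06 ± 0.24 (adjusted p = 4.3e-16) at 3 months. Col13a1, the other transmembrane collagen tested, had 34 and 27 counts in neonatal CFs and 1 count in each 3-month library, too few for a fold. Col28a1, a collagen with von Willebrand factor type A domains found around peripheral nerve, was at 1.03 and 1.76 CPM in neonatal CFs, 6.21 and 5.61 at 3 months, 1.83 and 2.04 at 12 months and 6.90 and 5.18 at 24 months. It rose by 2.11 ± 0.24 at 3 months (adjusted p = 4.6e-09) and 2.14 ± 0.24 at 24 months, while the 12-month difference of 0.50 ± 0.30 missed the threshold (adjusted p = 0.15).

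Several members were counted in small numbers. Col24a1, a minor fibrillar chain, was at 0.610 and 0.568 CPM in neonatal CFs and 2.34 and 2.35 at 3 months (1.98 ± 0.35), and Col11a2, a partner of Col11a1, at 4.03 and 2.96 and then 1.35 and 1.82 (-1.16 ± 0.25). Col26a1 went from 4.13 and 3.52 CPM to 0.516 and 0.697 at 12 months (-2.64 ± 0.32). Col8a2, the partner of Col8a1, was at 0.844 and 0.739 CPM in neonatal CFs and 1.17 and 2.25 at 3 months (1.09 ± 0.38). The FACIT Col9a2 had 25 and 19 counts in neonatal CFs and 4 in each 3-month library, and its partner Col9a3 was at 1.31 and 0.568 CPM and then 1.93 and 1.97 (1.00 ± 0.34). Col6a4, Col6a5, Col17a1 and Col25a1 had at most 9 counts in any CF library, so nothing can be said of them here.

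The 12-month cells were the lowest of the adult ages for most members. Against 3 months, 1 collagen gene rose and 24 fell at 12 months, where 28.5% of all genes were called (13% higher, 15.5% lower). The falls took in 8 of 11 fibrillar, 6 of 8 network and 4 of 4 beaded genes tested. Col11a1 differed by -2.83 ± 0.09 (adjusted p = 5e-20), Col14a1 by -2.13 ± 0.14, Col28a1 by -1.60 ± 0.23 and Col3a1 by -0.95 ± 0.04. Col2a1, the main collagen of cartilage, was the 1 rise, from 0.270 and 0.527 CPM to 1.66 and 2.04 (2.22 ± 0.43).

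Between 12 and 24 months, 15 collagen genes rose and 3 fell, where 18.9% of all genes were called (10.8% higher, 8.07% lower). Col28a1 rose by 1.63 ± 0.22 (adjusted p = 1.4e-06), Col14a1 by 1.39 ± 0.14 and Col3a1 by 0.69 ± 0.04. The fall of Col11a1 by 0.60 (adjusted p = 0.0031) was -0.28 (adjusted p = 0.39) without CF 12-month replicate 2. At 24 months against 3 months 1 gene rose and 18 fell, where 18.3% were called (8.85% higher, 9.47% lower), with Col11a1 (-3.43 ± 0.10) and Col15a1 (-0.60) among the falls. The rise there was Col22a1, from 0.36 and 0.24 CPM to 0.657 and 1.52 (1.83 ± 0.54, adjusted p = 0.015). These comparisons share libraries with each other.

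In the LacZ cells collected on day 3, 4 collagen genes rose and 14 fell at 3 months against neonatal, where 30.9% of all genes were called (15.1% higher, 15.8% lower). At 18 months 4 rose and 22 fell, where 35.0% were called (16.7% higher, 18.3% lower). The neonatal LacZ libraries also held cardiomyocyte markers at 294 to 340 CPM, against 3.73 to 6.32 CPM at both later ages, and endothelial markers at 316 to 348 CPM, against 7.94 to 17.3 CPM. Epicardial markers summed to 573 to 611 CPM there and 92.8 to 116 CPM later. Pericyte and smooth muscle markers summed to 913 to 919 and then 228 to 480 CPM, and myofibroblast markers to 7878 to 7909 and then 3730 to 4757 CPM. Fibroblast markers went the other way, from 4303 to 4352 CPM to 5299 to 6701 CPM, and so did macrophage markers, from 207 to 258 CPM to 324 to 362 CPM. The part of these markers in the result was not tested.

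Col28a1 was at 2.39 and 2.03 CPM in neonatal LacZ cells, 24.0 and 20.6 at 3 months and 2.78 and 4.48 at 18 months. The 3-month libraries stood far above both other ages, by 3.33 ± 0.24 against neonatal (adjusted p = 1.6e-11). The 18-month rise of 0.71 ± 0.28 (adjusted p = 0.047) was not called under DESeq2 (adjusted p = 0.11) or with a replicate block (adjusted p = 0.052). Its call was also lost without LacZ 18-month replicate 2, where the rise was 0.33. The same held without LacZ neonatal replicate 1 (0.83) or LacZ neonatal replicate 2 (0.60). Col3a1 was at 2029 and 1956 CPM in neonatal LacZ cells, 4268 and 4093 at 3 months and 1148 and 1402 at 18 months, a rise of 1.07 ± 0.10 and then a fall of 0.64 against neonatal. Col1a1 was at 6342 and 6310, 4422 and 3910, and 2597 and 2946 CPM, lower at 3 months (-0.60) and at 18 months (-1.19 ± 0.10).

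Col11a1 had its fall later here than in untreated CFs. Neonatal LacZ cells held 232 and 228 CPM, against 237 and 211 at 3 months and 40.7 and 47.6 at 18 months, with differences of -0.04 ± 0.09, which missed the threshold, and -2.38 ± 0.10. The 2 sets were counted in separate tables, and the difference between them was not tested. Col14a1 was at 211 and 200 CPM in neonatal LacZ cells, 92.2 and 51.3 at 3 months and 4.87 and 9.83 at 18 months, falling by 4.82 at 18 months with an SE of 0.39. Col6a3 fell from 52.3 and 47.3 CPM to 11.5 and 6.76 at 3 months (-2.46 ± 0.19) while Col6a1, at 299 and 281 CPM and then 321 and 292, missed the threshold. Col15a1, Col18a1 and Col23a1 were lower at 3 months, with differences of -1.87 ± 0.13, -1.69 ± 0.12 and -2.47 ± 0.29.

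The next question was what the reprogramming factors did to collagen expression at each age. In neonatal cells 6 collagen genes rose and 5 fell with MGT, where 7.51% of all genes were called (4.26% higher, 3.24% lower). In 3-month cells 12 rose and 10 fell, where 17.4% were called (8.99% higher, 8.39% lower), and in 18-month cells 14 rose and 3 fell, where 16.6% were called (8.52% higher, 8.05% lower). The neonatal count of 11 was 5 without LacZ neonatal replicate 1, 6 without LacZ neonatal replicate 2 and 7 without MGT neonatal replicate 1. Col9a1, Col6a5, Col13a1, Col25a1 and Col26a1 had too few counts to test, which left 39 genes. Mef2c was at 150 to 219 CPM in MGT cells and 8.05 to 18.3 CPM in LacZ cells, and 6 of 8 cardiomyocyte markers rose at each age. Epicardial markers summed to 113 to 116 CPM in 3-month LacZ cells and 199 to 211 in MGT cells, and to 92.8 to 106 and then 165 to 170 CPM at 18 months. In neonatal cells they went the other way, from 573 to 611 CPM with LacZ to 426 to 465 CPM with MGT. Pericyte and smooth muscle markers summed to 228 to 237 and then 337 to 342 CPM at 3 months and to 441 to 480 and then 595 to 658 CPM at 18 months. Myofibroblast markers at 18 months summed to 4488 to 4757 CPM in LacZ cells and 5868 to 6221 CPM in MGT cells. They summed to 7878 to 7909 and then 8476 to 8728 CPM in neonatal cells, and to 3730 to 3786 and then 4203 to 4289 CPM at 3 months. Macrophage markers summed to 324 to 334 and then 424 to 437 CPM at 3 months, and to 338 to 362 and then 384 to 451 CPM at 18 months. In neonatal cells the macrophage sums overlapped. The part of these markers in the collagen differences was not tested. The LacZ libraries compared here also enter the comparisons of LacZ ages above.

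By class, 2 of 9 network genes rose in neonatal cells, 4 rose and 1 fell at 3 months, and 4 rose at 18 months. Of 11 fibrillar genes 2 fell in neonatal cells and 4 fell at 3 months, and at 18 months 3 rose and 1 fell.

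Col10a1, a network collagen known from hypertrophic cartilage, had the highest fold change of the members at each age. Neonatal LacZ cells held it at 0.228 and 0.267 CPM and neonatal MGT cells at 6.91 and 11.6. At 3 months LacZ cells were at 0.128 and 0.114 CPM and MGT cells at 8.37 and 8.96, and at 18 months LacZ cells were at 0.521 and 0.187 CPM and MGT cells at 18.4 and 24.3. No LacZ library reached 1 CPM and no MGT library was below 6.91, and the rises were 5.18 ± 0.38 (adjusted p = 3.0e-10), 6.08 ± 0.45 (adjusted p = 1.7e-10) and 5.86 ± 0.34 (adjusted p = 1.7e-12). These folds rest on 9, 4 and 12 counts in the LacZ groups. Chondrocyte markers summed to 42.0 to 54.5 CPM in neonatal and 18-month MGT cells and 43.2 to 65.7 CPM in the LacZ cells of those ages, and to 32.5 to 34.6 CPM and 69.3 to 73.1 CPM at 3 months.

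Col10a1 spans chr10:34389981-34397085 on the plus strand, inside Nt5dc1, a protein-coding gene of the opposite strand. Whether the counting used strand is not given in the sources used here, so reads of the 2 genes may be mixed. Nt5dc1 itself was at 12.4 to 17.7 CPM in LacZ cells and 11.2 to 17.5 CPM in MGT cells. The bases before the Col10a1 start, chr10:34389731-34389980 on the plus strand (RefSeq sequence, GRCm38.p6), are shown because this gene changed most with MGT, with a TATAAA match in capitals.
Col10a1: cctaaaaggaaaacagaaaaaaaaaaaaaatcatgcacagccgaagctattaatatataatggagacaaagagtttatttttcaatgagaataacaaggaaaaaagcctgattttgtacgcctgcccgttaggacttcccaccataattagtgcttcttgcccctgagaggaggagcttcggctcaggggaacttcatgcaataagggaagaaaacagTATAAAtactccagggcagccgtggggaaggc

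A pair of FACIT genes also rose at all 3 ages. Col22a1, a collagen of tissue junctions such as that of muscle and tendon, was at 1.20 and 0.854 CPM in neonatal LacZ cells and 2.75 and 5.39 in MGT cells, at 1.02 and 0.625 and then 12.5 and 14.3 at 3 months, and at 0.985 and 0.373 and then 11.5 and 12.5 at 18 months. LacZ and MGT libraries did not overlap at any age, with rises of 1.98 ± 0.35 (adjusted p = 0.00035), 4.03 ± 0.33 and 4.11 ± 0.34. Col19a1 rose by 2.04 ± 0.40, 2.92 ± 0.47 and 1.83 ± 0.39, from LacZ levels of 0.256 to 0.985 CPM to MGT levels of 2.25 to 3.87 CPM. Col12a1 was at 835 and 465 CPM in 3-month LacZ cells and 1688 and 1667 in MGT cells (1.37 ± 0.24, adjusted p = 0.0077), and its differences of 0.93 in neonatal and 0.85 in 18-month cells missed the threshold (adjusted p = 0.073 and 0.054).

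Col4a3 rose at each age while its head-to-head neighbour did not pass the test. Col4a3 was at 4.27 and 4.86 CPM in neonatal LacZ cells and 7.36 and 8.84 in MGT cells, at 1.66 and 1.76 and then 3.91 and 4.34 at 3 months, and at 1.97 and 2.43 and then 6.15 and 5.12 at 18 months. The rises were 0.82 ± 0.21, 1.26 ± 0.26 and 1.36 ± 0.24. The neonatal rise was lost under DESeq2 (0.82, adjusted p = 0.064) and without MGT neonatal replicate 2 (0.69, adjusted p = 0.20), LacZ neonatal replicate 1 (0.74, adjusted p = 0.16) or LacZ neonatal replicate 2 (0.93, adjusted p = 0.058). Col4a4 was at 4.22 and 2.44 CPM in 3-month LacZ cells and 3.78 and 2.83 in MGT cells, and its libraries overlapped.

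Among the falls, Col28a1 and Col3a1 passed at all 3 ages. Col28a1 was at 24.0 and 20.6 CPM in 3-month LacZ cells and 3.72 and 3.45 in MGT cells (-2.63 ± 0.23, adjusted p = 1.5e-09), at 2.39 and 2.03 and then 0.618 and 0.848 in neonatal cells (-1.59 ± 0.37), and at 2.78 and 4.48 and then 1.76 and 0.937 at 18 months (-1.42 ± 0.31). The 18-month fall became -1.03 without LacZ 18-month replicate 2 and -1.05 without MGT 18-month replicate 2 (adjusted p = 0.074 each). The neonatal fall became -1.46 (adjusted p = 0.062) without LacZ neonatal replicate 1 and -1.36 (adjusted p = 0.084) without MGT neonatal replicate 1.

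Col3a1 fell from 4268 and 4093 to 1495 and 1708 CPM at 3 months (-1.38 ± 0.10, adjusted p = 1.7e-10), from 2029 and 1956 to 1122 and 937 CPM in neonatal cells (-0.95 ± 0.10), and from 1148 and 1402 to 940 and 1015 CPM at 18 months (-0.38 ± 0.10). The 18-month fall was -0.22 (adjusted p = 0.25) without LacZ 18-month replicate 2 and -0.32 (adjusted p = 0.11) without MGT 18-month replicate 1. Fibroblast markers summed to 6160 to 6701 CPM in 3-month LacZ cells and 6014 to 6191 CPM in MGT cells.

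The other main fibrillar gene had another course. Col1a1 was at 6342 and 6310 CPM in neonatal LacZ cells and 5959 and 5828 in MGT cells, and at 4422 and 3910 and then 4739 and 4922 at 3 months, both under the threshold for a call. At 18 months it was at 2597 and 2946 CPM in LacZ cells and 4083 and 5202 in MGT cells, a rise of 0.74 ± 0.10 (adjusted p = 3.6e-06).

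Type VI chains again parted. Col6a1 was at 321 and 292 CPM in 3-month LacZ cells and 119 and 134 in MGT cells (-1.28 ± 0.13), and it fell in neonatal cells by 0.65 and at 18 months by 0.55. The 18-month fall was -0.27 (adjusted p = 0.16) without LacZ 18-month replicate 2 and -0.45 (adjusted p = 0.10) without MGT 18-month replicate 1. Col6a3 was at 11.5 and 6.76 CPM in 3-month LacZ cells and 15.1 and 16.2 in MGT cells (0.79 ± 0.20), and at 19.6 and 17.4 and then 38.1 and 48.9 at 18 months (1.23 ± 0.17).

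**Figure D3:**
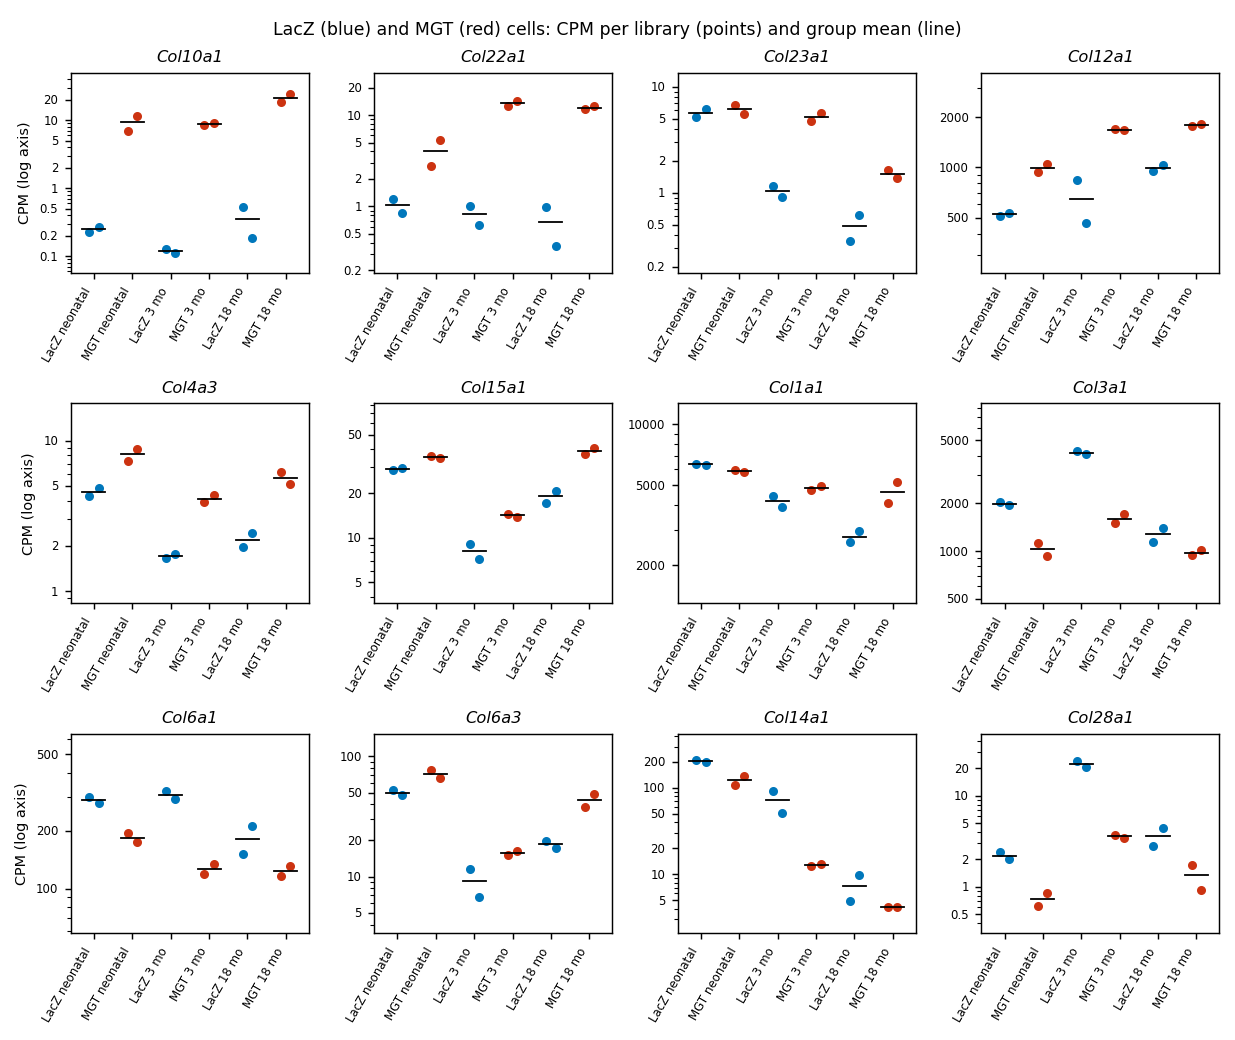
Levels (CPM, log axis) of 12 collagen genes in the LacZ (blue) and MGT (red) libraries of each age, 2 libraries per group (points) with the mean (line). Col10a1 and Col22a1 are higher in every MGT library than in any LacZ library, and Col28a1 stands highest in the 3-month LacZ cells, at 24.0 and 20.6 CPM.

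The effect of MGT was then compared between ages by an interaction term in the same fit. At 3 months minus neonatal, 2 collagen genes differed, both with the larger effect at 3 months, where 3.70% of all genes were called (2.28% higher, 1.41% lower). Col23a1 was at 5.24 and 6.19 CPM in neonatal LacZ cells and 6.75 and 5.57 in MGT cells, and at 1.15 and 0.909 and then 4.77 and 5.72 at 3 months. MGT and LacZ libraries overlapped in the neonatal cells and not at 3 months, and the difference of effects was 2.24 ± 0.38 (adjusted p = 0.00051). Col22a1 differed by 2.05 ± 0.53 (adjusted p = 0.029), and this call was lost when any of 6 single libraries was left out, among them LacZ neonatal replicate 1 (adjusted p = 0.25).

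At 18 months minus neonatal 5 collagen genes differed, each with a positive difference, where 2.82% of all genes were called (2.03% higher, 0.788% lower). They were Col1a1 (0.85 ± 0.13, adjusted p = 0.00032), Col15a1 (0.77 ± 0.17, adjusted p = 0.0082), Col3a1 (0.57 ± 0.14, adjusted p = 0.022), Col1a2 (0.45 ± 0.11, adjusted p = 0.023) and Col22a1 (2.13 ± 0.55, adjusted p = 0.032). Leaving out LacZ neonatal replicate 2 took Col15a1 to 0.73 (adjusted p = 0.064), Col3a1 to 0.58 (adjusted p = 0.086), Col1a2 to 0.46 (adjusted p = 0.12) and Col22a1 to 2.34 (adjusted p = 0.071). Each of these 4 calls was also lost without MGT 18-month replicate 2, at an adjusted p of 0.078 for Col15a1, 0.17 for Col3a1, 0.15 for Col1a2 and 0.13 for Col22a1. Leaving out LacZ 18-month replicate 1 ended the calls of Col15a1 (0.64, adjusted p = 0.098), Col3a1 (0.43, adjusted p = 0.18) and Col1a2 (0.38, adjusted p = 0.19), and MGT neonatal replicate 2 those of Col3a1 (0.43, adjusted p = 0.17) and Col1a2 (0.41, adjusted p = 0.14). The count of 2 at 3 months was 1 without any of 5 single libraries and 9 without LacZ 3-month replicate 1, and the count of 5 at 18 months was 1 without LacZ neonatal replicate 2 or MGT 18-month replicate 2. The call of Col1a1 held when each library was left out in turn. For Col10a1 the difference of effects was 0.91 ± 0.94 at 3 months and 0.69 ± 0.79 at 18 months (adjusted p = 0.76 and 0.77), with an error too wide to tell the ages apart.

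With Nr4a3 overexpressed in neonatal CFs, 10 collagen genes rose and 0 fell of the 34 tested by edgeR, where 22.7% of all genes were called (11.9% higher, 10.8% lower). DESeq2 gave the same counts, and at an unadjusted p under 0.05 17 were higher and 0 lower. Without OECtrl replicate 1 there were 17 rises and 2 falls, and without OECtrl replicate 2 there were 15 rises and 3 falls. Col12a1 was at 261 and 173 CPM in OECtrl and 673 and 649 in OENr4a3 (1.61 ± 0.17, adjusted p = 0.00049). Col11a1 was at 538 and 458 CPM and then 966 and 984 (0.97 ± 0.11, adjusted p = 0.00066), and Col14a1 at 363 and 299 CPM and then 617 and 620 (0.90 ± 0.11). In these 3 genes both OENr4a3 libraries were close together and above both controls.

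Both members of the Col4a3 and Col4a4 pair rose. Col4a3 was at 55.5 and 43.0 CPM in OECtrl and 110 and 97.5 in OENr4a3 (1.08 ± 0.14, adjusted p = 0.0014), and Col4a4 at 59.7 and 58.3 and then 119 and 107 (0.94 ± 0.11, adjusted p = 0.00071). Col6a3 was at 61.8 and 34.3 CPM and then 97.7 and 107 (1.10 ± 0.22), and Col6a6, with 6 counts in the controls, rose by 3.25 ± 0.60. The rises of Col1a1 (0.33, adjusted p = 0.039), Col4a1 (0.35, adjusted p = 0.040) and Col4a2 (0.37, adjusted p = 0.046) were lost without either OENr4a3 library, at an adjusted p of 0.25 to 0.37. Col3a1, at 7045 and 6705 CPM and then 6754 and 6887, missed the threshold. Fibroblast markers summed to 5330 to 5986 CPM in OECtrl and 4649 to 4683 CPM in OENr4a3. Epicardial markers summed to 1053 to 1154 and then 567 to 605 CPM, macrophage markers to 933 to 949 and then 607 to 629 CPM, and cardiomyocyte markers to 455 to 501 and then 268 to 294 CPM. Xist, a transcript of female cells, was at 282 and 224 CPM in OECtrl and 483 and 484 CPM in OENr4a3. The part of these differences in the collagen rises was not tested.

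With Nr4a3 knocked down in 3-month MGT cells, 14 collagen genes rose and 14 fell of the 40 tested, where 54.5% of all genes were called (27.9% higher, 26.7% lower). Of members at an average log2 CPM of at least 5, 18 of 21 changed, against 71.2% of all genes above that level. Cell markers moved too: fibroblast markers summed to 3319 to 3548 CPM with shNT and 2005 to 2347 CPM with shNr4a3, myofibroblast markers to 1683 to 1826 and 6149 to 6516 CPM, and cardiomyocyte markers to 9467 to 11060 and 5530 to 6305 CPM. The reprogramming factors were lower too, with Mef2c at 188 and 167 CPM with shNT and 106 and 134 with shNr4a3, Tbx5 at 238 and 204 and then 180 and 163, and Gata4 at 133 and 125 and then 95.2 and 104. Their part in the collagen changes was not tested.

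The type IV genes gave the clearest contrast. Col4a3 was at 32.6 and 37.6 CPM with shNT and 2.78 and 4.23 with shNr4a3, and fell by 3.32 on the log2 scale with an SE of 0.17 (adjusted p = 6.9e-09). Col4a4 was at 38.6 and 42.3 CPM and then 6.53 and 6.72, and fell by 2.61 with an SE of 0.12 (adjusted p = 1.6e-09). Col4a3 and Col4a4 thus fell together, as they had risen together with overexpression in neonatal CFs, a comparison made in other cells and at an uncertain time. The part of their close starts in this was not tested. Col4a1 and Col4a2 parted: Col4a1 was at 3432 and 3839 CPM and then 4902 and 5080 (0.46 ± 0.09, adjusted p = 0.00071), and Col4a2 at 2893 and 3160 and then 1948 and 2204 (-0.54 ± 0.09, adjusted p = 0.00024). Counts of Col4a1 per count of Col4a2 went from 1.19 and 1.22 to 2.52 and 2.31.

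**Figure D4:**
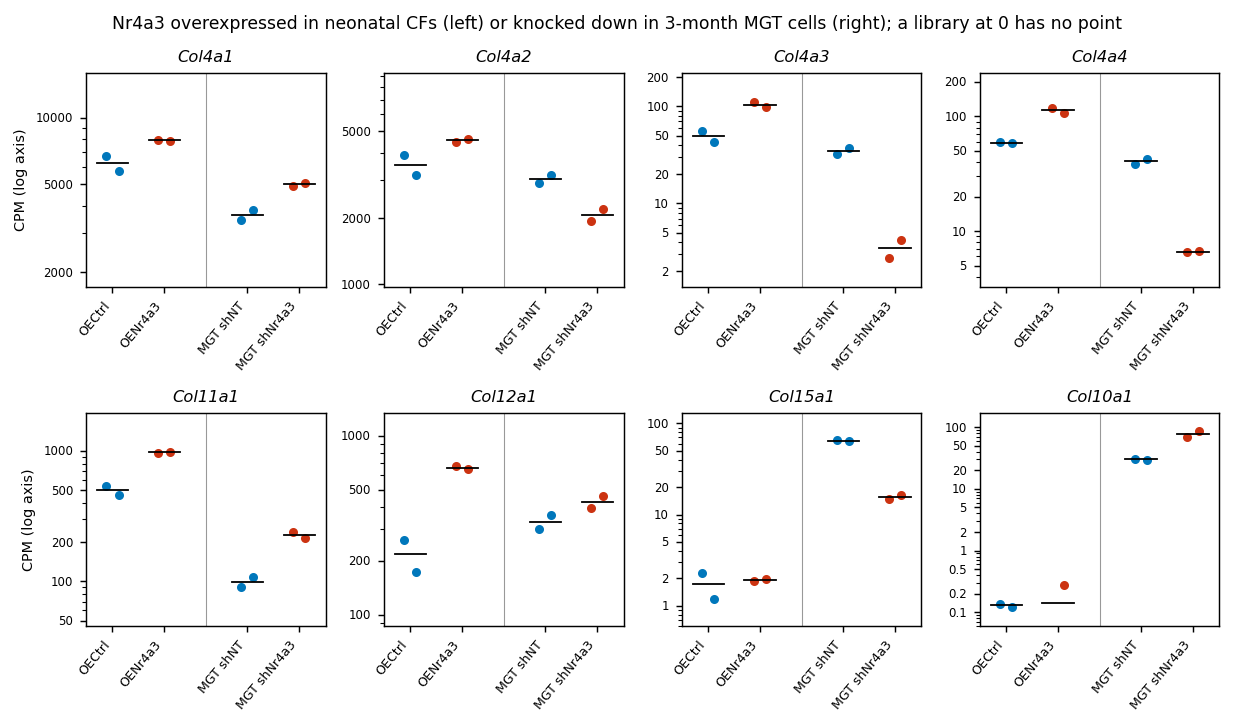
Levels (CPM, log axis) of 8 collagen genes with Nr4a3 overexpressed in neonatal CFs (left of the grey line) or knocked down in 3-month MGT cells (right), 2 libraries per group (points) with the mean (line). Col4a3 and Col4a4 are higher in both OENr4a3 libraries than in OECtrl and lower in both shNr4a3 libraries than in shNT. Col11a1, Col12a1 and Col4a1 are higher in OENr4a3 and in shNr4a3.

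Other falls with knockdown included both multiplexins. Col15a1 was at 65.7 and 63.3 CPM with shNT and 14.6 and 16.3 with shNr4a3 (-2.06 ± 0.10, adjusted p = 3.4e-09), and Col18a1 at 42.6 and 51.3 and then 26.6 and 23.8 (-0.90). Col28a1 was at 17.1 and 14.8 CPM and then 3.61 and 4.81 (-1.92 ± 0.17, adjusted p = 7.9e-07), and Col16a1 at 263 and 265 and then 122 and 116 (-1.15 ± 0.08). Col1a1 fell from 1381 and 1469 to 813 and 745 CPM (-0.87 ± 0.09, adjusted p = 1.9e-06) and Col1a2 from 1757 and 1875 to 1407 and 1344 (-0.40). Type I chains were thus lower with shNr4a3 while Col3a1, at 1196 and 1158 CPM and then 1244 and 1168, missed the threshold at 0.03.

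Low members moved as well. Col20a1, a FACIT, was at 8.64 and 10.3 CPM with shNT and 2.63 and 3.79 with shNr4a3 (-1.56 ± 0.21), and Col9a3 at 5.09 and 5.91 and then 1.68 and 2.14 (-1.53 ± 0.23). The transmembrane Col13a1 was at 2.58 and 2.69 CPM and then 0.431 and 0.558 (-2.41 ± 0.35), and the type VI chain Col6a4 at 0.149 and 0.139 and then 0.814 and 0.814 (2.48 ± 0.63).

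Col11a1 and the type V chains Col5a1 and Col5a2, minor fibrillar chains, rose. Col11a1 was at 91.1 and 108 CPM with shNT and 238 and 216 with shNr4a3 (1.19 ± 0.10, adjusted p = 3.7e-07), and Col5a1 at 1029 and 1150 and then 2279 and 2244 (1.05 ± 0.09, adjusted p = 3.8e-07). Col5a2 rose by 0.50 from 3509 and 3806 CPM to 5378 and 4949. The minor chains Col11a2 (-0.28 ± 0.11, adjusted p = 0.0502), Col27a1 (-0.25 ± 0.11, adjusted p = 0.075) and Col24a1 (0.41 ± 0.35, adjusted p = 0.35) missed the threshold. Col11a2 was at 21.7 and 21.8 CPM with shNT and 17.0 and 18.8 with shNr4a3. Col10a1 was at 30.2 and 29.9 CPM and then 69.9 and 86.5 (1.38 ± 0.11, adjusted p = 2.6e-07), while Nt5dc1, in which it lies, was at 8.29 and 8.57 and then 4.28 and 4.93. Col12a1, Col14a1, Col6a6 and Col4a1 rose with both changes of Nr4a3, as Col11a1 did. With knockdown Col12a1 went from 301 and 359 CPM to 393 and 462, and Col14a1 from 20.9 and 30.0 to 44.6 and 42.6. Col6a6 went from 2.21 and 2.55 CPM to 5.65 and 5.44. The Col12a1 rise with knockdown was 0.38, and 0.25 without shNT replicate 1. Col11a1 spans chr3:114030540-114220718 on the plus strand. It was higher than its control both with Nr4a3 overexpressed and with it knocked down. The bases before its start, chr3:114030290-114030539 on the plus strand (RefSeq sequence, GRCm38.p6), are shown for that reason, with TGACCTT in capitals, which reads AAGGTCA on the other strand.
Col11a1: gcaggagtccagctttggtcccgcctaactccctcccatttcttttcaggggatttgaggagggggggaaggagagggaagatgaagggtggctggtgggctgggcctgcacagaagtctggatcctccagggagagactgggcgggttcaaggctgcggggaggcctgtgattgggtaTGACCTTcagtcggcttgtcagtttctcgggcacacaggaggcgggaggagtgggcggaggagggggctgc

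Nr4a receptors are known to bind the element AAAGGTCA, so promoter windows of 300 bases (250 before and 50 after the start, both strands) were searched for it. Of the 44 members 35 matched the RefSeq table, with 38 windows. AAAGGTCA was in 2 member windows, those of Col23a1 and Col24a1, and in 1.51% of all 32851 windows. AAGGTCA, which the longer element contains, was in those 2 and the windows of Col11a1, Col7a1 and Col9a1, 5 in all, and in 4.72% of all windows. TATAAA was in 5 member windows (Col10a1, Col11a2, Col13a1, Col17a1 and Col3a1) and in 13.6% of all windows, and GGGCGG was in 23 and in 35.7%. Motifs of the MGT factors were searched too. A MEF2 box was in 1 member window and 3.19% of all windows, GATAA in 7 and 25.4%, and the T-box GGTGTGA in 1 and 3.98%. CCAAT was in 13 member windows and 37.4% of all windows. The table holds no entry for Col1a1, Col2a1, Col4a3, Col5a2, Col9a3, Col12a1, Col14a1, Col22a1 and Col26a1. A match describes letters in a window and is not a binding site.

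**Figure D5:**
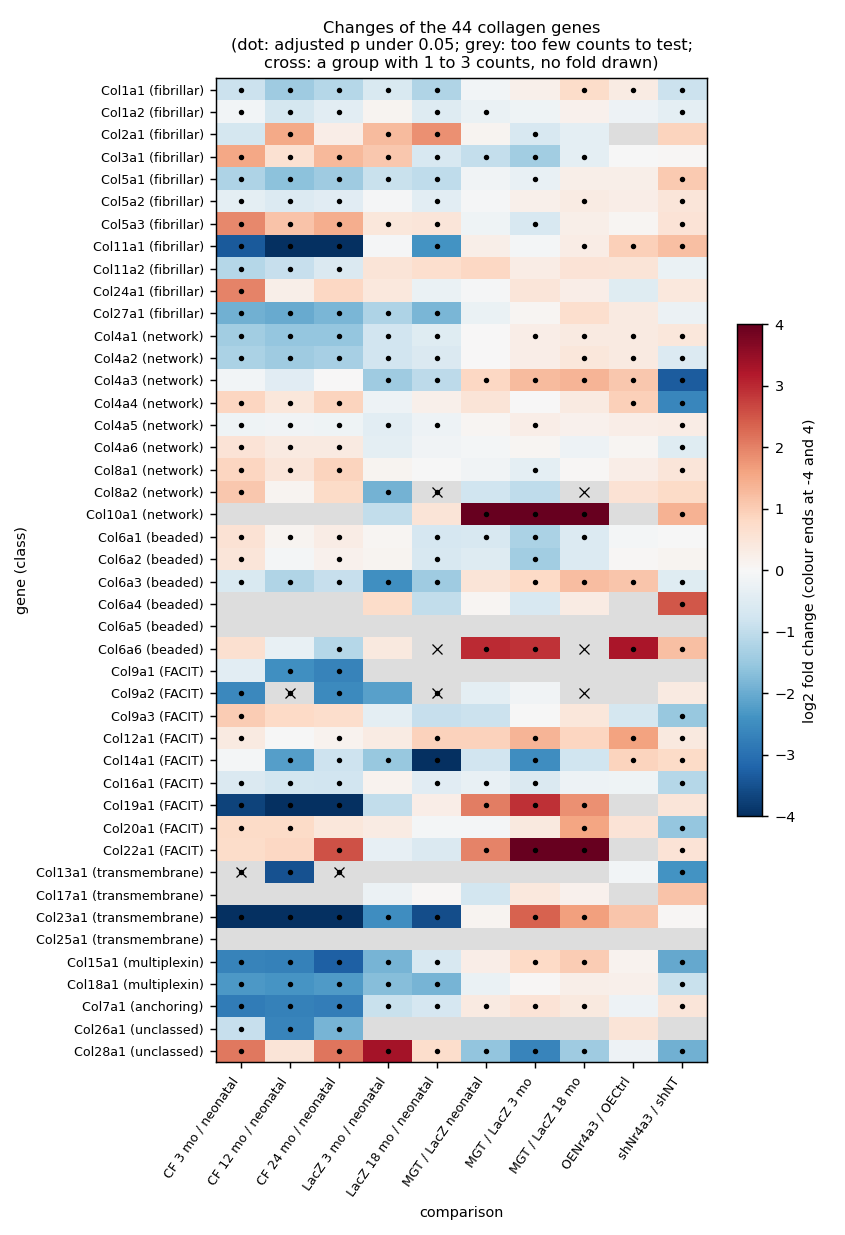
Log2 fold changes of the 44 collagen genes (rows, with class) in 10 comparisons (columns), in red where higher and in blue where lower, with a dot where adjusted p was under 0.05. Col11a1, Col23a1 and Col15a1 are blue in all CF ages, Col10a1 is deep red in all 3 MGT columns, and Col4a3 and Col4a4 are blue with shNr4a3 and red with OENr4a3. A group with 0 counts is drawn at its bound.

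Collagen chains need enzymes, chaperones and cross-linkers before they form fibres, and receptors bind the finished protein. A list of 42 such genes was followed beside the members. From neonatal to 3-month CFs 27 rose and 10 fell, where 52.5% of all genes were called, a median of 0.49 where the collagen median was -0.38. At 24 months 28 rose and 12 fell, where 54.5% were called. The share of all genes called was higher among those at an average log2 CPM of at least 5, at 67.8% and 69.6%. From 12 to 24 months 28 rose and 1 fell, where 18.9% of all genes were called, and at 12 against 3 months 2 rose and 28 fell, where 28.5% were called.

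Pcolce2, an enhancer of the protease that trims fibrillar procollagen, was at 8.36 to 8.40 CPM in neonatal CFs, 212 to 214 at 12 months and 262 to 263 at 24 months. It rose by 4.31 ± 0.06 at 3 months (adjusted p = 3.0e-32) and 4.97 ± 0.06 at 24 months, and in LacZ cells by 2.30 ± 0.11 at 3 months. Adamts2, which removes the amino-terminal propeptide of types I and III, rose by 1.27 ± 0.05 at 3 months. Plod2, a lysyl hydroxylase that sets the type of cross-link, was at 736 to 770 CPM at 3 months, 458 to 459 at 12 months and 701 to 733 at 24 months, the same low point as Col14a1 and Col3a1 among the adult ages.

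With MGT, 4 list genes rose and 2 fell in neonatal cells (6 in all, but 3 without either LacZ neonatal library and 2 without MGT neonatal replicate 2), 5 rose and 11 fell at 3 months, and 14 rose and 4 fell at 18 months. Of all genes 7.51%, 17.4% and 16.6% were called at these ages, and 9.13%, 23.6% and 25.3% of those at an average log2 CPM of at least 5. P3h2, a prolyl 3-hydroxylase that acts on type IV collagen, was at 6.44 to 6.51, 2.50 to 2.56 and 1.62 to 2.38 CPM in the LacZ cells of the 3 ages and at 14.7 to 21.1, 16.1 to 16.3 and 14.7 to 15.2 CPM in the MGT cells. It rose at all 3 ages, by 1.46 ± 0.18, 2.67 ± 0.21 (adjusted p = 2.6e-10) and 2.89 ± 0.22. The count at 18 months was 8 in place of 18 without LacZ 18-month replicate 2, 9 without LacZ 18-month replicate 1 and 11 without MGT 18-month replicate 2.

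With Nr4a3 overexpression 15 list genes rose and 2 fell, where 22.7% of all genes were called and 30.8% of those at an average log2 CPM of at least 5. With knockdown 22 rose and 7 fell, 29 of 42, where 54.5% of all genes and 71.2% of those at the higher level were called, so the share changed is near the background. The overexpression count of 17 was 29 without OECtrl replicate 1, 9 without OENr4a3 replicate 1 and 8 without OENr4a3 replicate 2. With knockdown P4ha3, a prolyl 4-hydroxylase subunit, went from 4.54 to 5.23 CPM to 45.3 to 45.4 (3.21 ± 0.12, adjusted p = 4.4e-10), and Adamts14, a procollagen protease, from 4.77 to 5.12 CPM to 44.4 to 52.7 (3.29 ± 0.13). Loxl2, a cross-linking oxidase, rose from 474 to 537 CPM to 1416 to 1451, and P4hb, the other prolyl 4-hydroxylase subunit, fell from 802 to 811 CPM to 285 to 323 (-1.41 ± 0.09). P3h2 rose by 1.93 ± 0.19 with overexpression and went from 59.0 to 74.8 CPM to 175 to 196 CPM with knockdown.

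The single-cell libraries gave the levels in MGT cells of neonatal and 24-month mice, with 1 library per age and so no test between ages. After filtering, 3828 of 4816 neonatal and 5773 of 6796 24-month barcodes were kept, with medians of 13960 and 20771 UMIs (unique molecular identifiers, counts of distinct transcripts). The libraries shared 11 barcode sequences, 6 of them among kept cells. Collagen genes held 0.768% of UMIs in the neonatal library and 1.13% at 24 months. Levels are again CPM, here of UMIs, and the 95% intervals are exact Poisson intervals that cover counting error only.

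Col1a1 was alike in both libraries, at 1537 (1530 to 1544) and 1533 (1527 to 1540) CPM, while Col3a1 was at 800 (795 to 805) and 2517 (2509 to 2525) and Col1a2 at 1532 (1526 to 1539) and 2689 (2681 to 2697). Col28a1 was at 0.277 (0.192 to 0.387) CPM in the neonatal library and 17.1 (16.4 to 17.8) at 24 months. Col4a3 went the other way, at 21.2 (20.4 to 22.0) and 0.375 (0.284 to 0.486), and so did its neighbour Col4a4, at 34.8 (33.7 to 35.8) and 1.42 (1.24 to 1.63). Those intervals do not overlap, and whether the library, the age or the cell makeup sets the difference cannot be told apart. The 2 cardiomyocyte-like clusters described below held 550 and 235 neonatal cells and 2 and 0 cells of 24 months. The main unnamed cluster of 24 months held 2204 cells of that age and 12 neonatal cells. Col10a1, raised by MGT in bulk, was at 0.765 and 0.652 CPM. Both multiplexins, lower at later ages in untreated bulk CFs, were not lower at 24 months here. Col15a1 was at 18.0 (17.3 to 18.8) CPM in the neonatal library and 76.9 (75.5 to 78.3) at 24 months, and Col18a1 at 6.26 and 7.58.

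Clusters were made without the collagen genes and named from marker lists where the markers allowed it. Most clusters came from 1 library almost alone, so a cluster may be that library and not a cell type. Macrophage-like cells, which should lack most collagens, serve as a rough level of free RNA. Doublets were not removed, so that level may hold more than free RNA. Collagen genes held 0.982% of UMIs in the largest well-covered neonatal cluster, 0.472% in the cardiomyocyte-like cells and 0.0801% in the macrophage-like cells, with cluster medians of 56160, 43615 and 27733 UMIs per cell. At 24 months they held 1.33% in the main unnamed cluster, 1.09% in the fibroblast-like cells and 0.263% in the macrophage-like cells. The neonatal cardiomyocyte-like values are those of the larger and more deeply covered of 2 such clusters; the other, of 235 cells with a median of 1865 UMIs, held 0.0473% of its UMIs in collagen genes and is left out for single genes (Col3a1 had 31 UMIs and Col4a3 had 3). In the neonatal library, Col4a3 was at 54.8 CPM in the 550 cells of that cardiomyocyte-like cluster, 13.7 in 1134 cells of an unnamed cluster led by Crct1 and Eln and 4.15 in 201 macrophage-like cells. Col4a4 had the same order there, at 87.6, 22.8 and 5.31. Col6a3 was also highest in the cardiomyocyte-like cells of these 3 clusters, at 101 CPM against 47.2 and 8.79. The contrasts between these clusters, here and below, rest on 1 clustering. At a resolution of 1 in place of 0.5, a cluster of 495 neonatal cells with Eln and Ptprz1 among its top genes was named cardiomyocyte-like. Both are also top genes of the unnamed cluster. A further 728 neonatal cells, in a cluster led by Mb, were named cardiomyocyte-like there too.

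Fibrillar genes had another order. In the neonatal library Col3a1 was at 1086 CPM in the unnamed cluster, 228 in the cardiomyocyte-like cells and 72.3 in the macrophage-like cells. Col11a1 was at 77.2 in the unnamed cluster and 7.45 in the cardiomyocyte-like cells, and Col22a1, the junction FACIT, was at 3.92 in the cardiomyocyte-like cells and 0.202 in the unnamed cluster, next to 0.166 in the macrophage-like cells.

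At 24 months, Col28a1 was at 20.4 CPM in the main unnamed cluster of 2204 cells, 6.63 in 808 macrophage-like cells and 3.48 in 384 fibroblast-like cells. The level in this fibroblast-like cluster was thus no higher than that of the macrophage-like cells and cannot be told apart from background here. Its name depended on the clustering resolution. At 1 in place of 0.5, the cluster led by Sparcl1, which also leads this one, was unnamed. A cluster of 616 cells with Mmp3 and Cpxm1 among its top genes was named fibroblast-like there. Both are top genes of the main unnamed cluster, as is Mfap5 of the fibroblast list. The unnamed cluster may thus hold fibroblasts too. Col15a1 was at 100 CPM in the unnamed cluster, 24.1 in the fibroblast-like cells and less in the macrophage-like cells. Col10a1 was at 4.42 in the fibroblast-like cells, 0.0603 in the unnamed cluster and 0 in the macrophage-like cells, where the interval reaches 0.191. The library held 99 Col10a1 UMIs in 9 of its 5773 cells, and the fibroblast-like level rests on 56 UMIs in 0.521% of the 384 cells. Col18a1 was at 222 CPM in 64 endothelial-like cells and 2.12 in the macrophage-like cells.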

How the data were processed

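Cardiac fibroblast RNA was measured in 28 bulk libraries (14 groups of 2) and 2 single-cell libraries. The deposited bulk tables hold raw read counts per gene, made by the authors with Trimmomatic 0.36, Subread 1.5.1 and featureCounts on mm10, per the submitters' processing notes. The strand setting is not given in the sources used here. Per the labels' protocols, rRNA was depleted before stranded library preparation, while the molecule label says polyA RNA. The deposited single-cell matrices hold UMI counts, and the software that made them is not given in the sources used here. Columns were matched to samples by name where the names allowed it. A column named 13 months was read as the 12-month group and one named for 15 months as the 18-month group, each being the sole age left over. Columns named GFP were read as OECtrl and those named D3 as MGT cells, each being the sole treatment left over in its set. Another 4 columns of the knockdown table match no sample and were not used.

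The 4 tables were fitted separately with edgeR 4.0.16 in R 4.3.3 (TMM scaling, filterByExpr, robust quasi-likelihood test, 1 coefficient per group, no covariates), with Benjamini-Hochberg adjustment over all genes tested. Calls were made at adjusted p under 0.05. The fit was tested on simulated data. Bulk CPM divides by library totals scaled by the TMM factors, shares of counts use the unscaled totals, and lengths are those deposited in the tables. Barcodes under 500 genes or over 20% mitochondrial UMIs were dropped, and the remaining cells were clustered with scanpy 1.11.5 (Leiden, resolution 0.5) without the collagen genes. Doublets were not removed and cell names were rebuilt here from fixed markers. Clusters resting on under 3 detected markers stayed unnamed. So did those with a median marker difference under 2 on the log2 scale or with at least 75% of another type's markers detected. Clusters with more top genes from another list, or with few UMIs and no marker among their top genes, stayed unnamed too.

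The members and lists were chosen with earlier results of these data known. Genes were named by a rule: the members highest per length in each class (4 fibrillar, 2 in other classes), up to 4 largest rises and falls per comparison among called members of average log2 CPM of at least 1 without overlap, and up to 4 assembly genes of smallest p. Neighbours, chain partners and low members were added beside them. Alternatives were DESeq2 1.42.0, RLE scaling, no low-count filter, a replicate block and leaving out each library. Of the members, 28 overlap another annotated gene, 18 of them one on the opposite strand.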

Additional observations from a re-analysis of the deposited data

Results flagged for a closer look

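The effect of MGT on 6 collagen genes differed between ages by the interaction test of edgeR, in which LacZ and MGT libraries of both ages enter. At 3 months minus neonatal the difference of log2 effects was 2.238 for Col23a1, which was alike in neonatal LacZ and MGT cells and higher with MGT at 3 months. It was 2.048 for Col22a1, where MGT gave 12.5 and 14.3 CPM at 3 months and 2.75 and 5.39 CPM in neonatal cells.

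At 18 months minus neonatal the difference was 0.8466 for Col1a1, 0.5699 for Col3a1, 0.7702 for Col15a1, 0.4536 for Col1a2 and 2.132 for Col22a1. Col1a1 libraries of neonatal cells were at 5959 and 5828 CPM with MGT, below LacZ, and those of 18 months at 4083 and 5202 CPM, above LacZ. For Col3a1 MGT was below LacZ at both ages and the fall was smaller at 18 months. All values but those of Col23a1 and Col1a1 lost their call without at least 1 single library.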

How the results depend on the processing

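Of 1564 alternative values for 192 results on named members, 1447 kept their direction and their side of the threshold. Another 117 fell below it and 0 reversed, and 153 results held under every alternative run. An alternative that gave no adjusted p was counted as kept when its direction was the same. With 2 libraries per group, leaving one out assumes that the lone library varies like the other groups. Among counts of called genes and shares, 224 of 260 alternatives stayed within 1.5 times or 1 interval of the reported value. The count of collagen genes whose MGT effect differed at 3 months was 5 with no filter on low counts and 4 with DESeq2, and 1 to 9 with a library left out. At 18 months it was 9 with no filter and 1 to 5 with a library left out. The count for MGT in neonatal cells ranged from 5 to 8 and that for Nr4a3 overexpression from 7 to 19. Assembly gene counts with a library left out ranged from 10 to 13 for 24 against 3 months, 2 to 6 for MGT in neonatal cells, 8 to 15 for MGT at 18 months, 2 to 10 and 2 to 5 for the differences of effect at 3 and 18 months, and 8 to 29 for overexpression. The collagen share of UMIs was 0.7631% and 1.1231% over all barcodes and 0.7782% and 1.1381% under a stricter filter (neonatal, then 24 months). Library numbers showed no pairing (correlations of deviations from -0.0776 to 0.0694), and with a replicate block all 30 counts stayed within 1.5 times, with 9 collagen genes for overexpression and 29 for knockdown. The causes of these shifts were not tested, except that a left-out library removes samples by construction. Leaving out mitochondrial genes moved the collagen share by over 1 SD in 6 of 14 groups.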
